A study of Mus musculus with 30 samples.

Results

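The T cell receptor signalling genes described here are 48 genes listed by symbol, from the chains of the receptor to the transcription factors and brakes at the end of its pathway. All 48 were found among the 55480 named genes of the QuantSeq files and the 34030 named genes of the RNA-seq files, and all 48 passed the filter on low counts in both kits. They fall into 6 steps of the pathway: the receptor complex and coreceptors (7 genes), the proximal kinases and phosphatase (6), the adaptors (10), the branch through phospholipase C, Ras and protein kinase C (7), the calcium and NFAT branch (8), and the negative regulators (10).

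CD4 T cells were sorted by flow cytometry from spleens of C57BL/6 mice 8 weeks of age, and 10 ng of total RNA entered each of 30 libraries. QuantSeq, which reads the 3' ends of transcripts, gave 22 libraries. TFH2 cells came from mice labelled OTII Tg IL-4BacTg x OTII Tg and were sorted as CD4+CD45.2+ PD1+ through CXCR5lo, CXCR5int and CXCR5hi gates (n = 2 in each gate). TFH cells came from OTII Tg mice and were sorted through the same gates (n = 3 CXCR5lo, n = 2 CXCR5int, n = 3 CXCR5hi). Bcl6KO cells were CD4+hCD2+ cells of Bcl6f/fCd4cre x OTII Tg mice (n = 2), and in these mice Cd4cre acts in T cells. Il4KO cells were CD4+ cells of Il4-/- x OTII Tg mice (n = 2). TH2 cells were CD4+hCD2+ cells of mice with the same genotype label as TFH2, OTII Tg IL-4BacTg x OTII Tg (n = 4), so every QuantSeq group carries the OTII receptor transgene. RNA-seq gave 8 libraries, with TFH CXCR5hi PD1+ cells of OTII Tg mice (n = 2), CD4+hCD2+ TH2 cells of IL-4BacTg mice without OTII (n = 2) and naive CD4+ cells of wild type mice, sorted by surface markers (n = 2). It also held 1 library labelled TH2 and 1 labelled TFH2 CXCR5hi, both from IL-4BacTg x OTII Tg mice. The labels name no animal, batch or immunisation. Whether the libraries of a group, or the gates of a genotype, come from separate mice is not stated. The fits took every library as independent, and p-values cover the spread between libraries, possibly a technical one. If gates share mice, comparisons that pool gates hold fewer independent units than libraries, and their p-values are too small.

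The T cell receptor has no enzyme activity of its own. When it binds peptide on an MHC molecule, Lck, brought close by the coreceptor CD4, phosphorylates the CD3 and zeta chains, and Zap70 docks there and phosphorylates the scaffold Lat. Adaptors gathered on Lat then start 3 branches: Ras, calcium with NFAT, and protein kinase C theta with NF-kappaB. Phosphatases, ubiquitin ligases and diacylglycerol kinases hold the signal back. Follicular helper (TFH) cells meet antigen again on B cells in germinal centres, and their receptor signals are known to shape their help.

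A QuantSeq library held 1.83 to 4.44 M counts, and an RNA-seq library 36.05 to 107.4 M. Levels are given as counts per M counts kept for the fit (CPM). In RNA-seq only the most counted transcript of each gene was kept, so CPM there is not per M of the library totals above. Differences are given as log2 ratios with standard errors from edgeR's quasi-likelihood fit over all genes. A member is called where its Benjamini-Hochberg adjusted p over all genes tested is under 0.05. The biological coefficient of variation was 1.26 in QuantSeq and 0.0879 in RNA-seq, so the same difference is called far more often in RNA-seq. Pairs of QuantSeq libraries of the same group had log2 correlations of only 0.375 to 0.523 across genes. In QuantSeq the TFH genes Cxcr5 and Il21 had 0 counts in all TH2 libraries, while Gata3, the TH2 transcription factor, had 218 to 329 CPM there and Il4 only 0 to 13.7 CPM. The 6 CD4 T cell markers, 2 of which are members, summed to 7118 to 10790 CPM in TFH and TFH2 libraries, against 4556 to 6571 CPM in TH2 libraries. Transcripts of 12 myeloid markers summed to 219 to 1318 CPM in TFH2 libraries, 74.9 to 156 CPM in TFH libraries and 0 to 7.18 CPM in TH2 libraries. The 10 B cell markers summed to 275 to 1016 CPM in TFH2 libraries, 199 to 297 CPM in TFH libraries and 60.6 to 168 CPM in TH2 libraries, with Ms4a1 at 0 in each of these groups. The 6 erythroid markers summed to 413 to 1589 CPM in TFH2 libraries, 39.5 to 340 CPM in TFH libraries and 0 to 39.6 CPM in TH2 libraries, with Alas2 at 0 in each. The part of these other cells in the results below was not tested beyond the values given without the TFH2 libraries. In bulk samples, fewer cells of a type and less RNA per cell cannot be told apart.

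Across all gates, TFH and TFH2 cells differed from TH2 cells in 16 of the 48 members (n = 14 and 4 libraries). Of these, 13 rose and 3 fell, where over all 14380 genes 2.95% were called higher and 7.29% lower. The median log2 ratio was 0.38 over the members and -0.17 over all genes. Receptor chains, the kinases Lck and Fyn, the phosphatase CD45, the Bcl10 and Malt1 pair, Nfatc1 and 3 negative regulators rose, while 2 adaptors and Rasgrp2 fell. At an unadjusted p under 0.05 the number was 20. With the TFH libraries alone set against TH2, 11 members were called higher and 1 lower, Trat1, where over all genes 348 and 395 were. Donor sex also differed: Ddx3y, a Y-linked gene, led Xist in TFH2 libraries and in 2 TH2 libraries, and Xist led in TFH libraries and in the other 2 TH2 libraries. With TH2 libraries of the Ddx3y kind alone, 8 members were called higher and 3 lower, where over all genes 373 and 488 were. Cd5, Lck, Bcl10, Ptpn22 and Dgkz lost their calls (adjusted p 0.0881 to 0.691). With those of the Xist kind alone, 11 members were called higher and 2 lower, where over all genes 299 and 632 were. Cd3g, Cd5, Grap2, Bcl10, Malt1 and Dgkz lost their calls there (adjusted p 0.0836 to 0.721).

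Among the receptor chains and coreceptors, 4 of 7 members rose in TFH and TFH2 cells and none was called lower, where 2.95% and 7.29% of all genes were. Cd4, the coreceptor that binds MHC class II, had 748 to 1295 CPM (median 1084) in the 14 TFH and TFH2 libraries, against 540, 503, 541 and 361 CPM in TH2 libraries. The groups did not overlap, and the log2 ratio was 1.14 ± 0.18 (adjusted p = 4.34e-07). Cd247, the zeta chain that carries most of the receptor's phosphorylation motifs, had 236 to 707 CPM (median 465) in TFH and TFH2 libraries, against 122, 280, 194 and 95.3 CPM in TH2 libraries. The highest TH2 library lay above 2 TFH2 libraries and 1 TFH library, and the log2 ratio was 1.25 ± 0.24 (adjusted p = 5.5e-05). Cd3g, the gamma chain, had 134 to 418 CPM (median 209) in TFH and TFH2 libraries, against 96.1, 146, 101 and 57.9 CPM in TH2 libraries, a log2 ratio of 1.08 ± 0.29 (adjusted p = 0.00774). Its call was lost without TH2 replicate 4 (adjusted p = 0.0553). Cd5, a membrane protein that dampens receptor signals, had 34.3 to 200 CPM (median 103) in TFH and TFH2 libraries, against 54.1, 37.1, 30.1 and 33.0 CPM in TH2 libraries, a log2 ratio of 1.33 ± 0.45 (adjusted p = 0.0412). It was no longer called when any of 12 of the 18 libraries was left out, TH2 replicates 2, 3 and 4 among them (adjusted p 0.0507 to 0.112). Cd3d, Cd3e and Cd6 had log2 ratios of 0.19, 0.35 and 0.94 and were not called.

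Fyn had the largest ratio of the 3 proximal members that rose, with Lck and Ptprc beside it. No proximal member was called lower, where 2.95% of all genes were called higher and 7.29% lower. Fyn, a Src family kinase that acts at the receptor alongside Lck, had 267 to 856 CPM (median 532) in TFH and TFH2 libraries, against 136, 77.3, 222 and 130 CPM in TH2 libraries. Each TFH and TFH2 library stood above each TH2 library, and the log2 ratio was 1.74 ± 0.25 (adjusted p = 2.96e-08). Ptprc encodes CD45, the phosphatase that keeps Src kinases primed, and it is found on all nucleated blood cells. It had 592 to 1218 CPM (median 858) in TFH and TFH2 libraries, against 492, 481, 342 and 299 CPM in TH2 libraries, with no overlap and a log2 ratio of 1.13 ± 0.19 (adjusted p = 1.59e-06). Lck had 448 to 891 CPM (median 704) in TFH and TFH2 libraries, against 169, 306, 401 and 531 CPM in TH2 libraries, a log2 ratio of 0.96 ± 0.28 (adjusted p = 0.0313). The Lck groups overlapped through TH2 replicate 4, and the call was lost without TH2 replicate 2 (adjusted p = 0.0735) and with the TFH libraries alone (adjusted p = 0.0532). Csk, the kinase that restrains Lck, and Zap70 had log2 ratios of 0.35 and 0.13, and Txk, a Tec family kinase, -0.28; none of the 3 was called.

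Of the 10 adaptors, Trat1 and Grap2 fell and none was called higher, where 7.29% of all genes were called lower. The median log2 ratio of the 10 was 0.06. Trat1, a transmembrane adaptor that associates with the receptor and is also called TRIM, had 0 to 17.5 CPM (median 9.58) in the 14 TFH and TFH2 libraries, against 165, 134, 117 and 49.8 CPM in TH2 libraries. The groups did not overlap, and the log2 ratio was -3.78 ± 0.62 (adjusted p = 7.54e-05). Bcl6KO libraries had 200 and 212 CPM of Trat1 and Il4KO libraries 87.7 and 121 CPM. Grap2, also called GADS, which ties SLP-76 to Lat, had 53.6 to 174 CPM (median 108) in TFH and TFH2 libraries, against 151, 124, 178 and 304 CPM in TH2 libraries, a log2 ratio of -0.93 ± 0.29 (adjusted p = 0.0272). The Grap2 call was lost without TH2 replicate 4 (adjusted p = 0.323), without any of 3 TFH2 libraries (CXCR5int replicate 1, CXCR5lo replicate 1 and CXCR5hi replicate 2), and with the TFH libraries alone (adjusted p = 0.245). The other 8 adaptors (Lat, Lcp2, Grb2, Vav1, Themis, Sit1, Pag1 and Skap1) had log2 ratios of -1.10 to 0.67 and were not called.

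In the branch through phospholipase C, Ras and protein kinase C, Bcl10 and Malt1 rose and Rasgrp2 fell. Of all genes 2.95% were called higher and 7.29% lower. Bcl10 and Malt1 belong to the complex that leads from protein kinase C theta to NF-kappaB. Malt1 had 124 to 239 CPM (median 155) in TFH and TFH2 libraries, against 97.7, 43.6, 47.2 and 18.4 CPM in TH2 libraries, with no overlap and a log2 ratio of 1.68 ± 0.36 (adjusted p = 0.000469). The Malt1 call was lost with the TH2 libraries of the Xist kind alone (log2 ratio 1.23, adjusted p = 0.0836). Bcl10 had 52.9 to 253 CPM (median 103) in TFH and TFH2 libraries, against 52.2, 38.8, 52.6 and 44.9 CPM in TH2 libraries, a log2 ratio of 1.24 ± 0.40 (adjusted p = 0.0304). The Bcl10 call was lost when any of 9 of the 18 libraries was left out, each of the 4 TH2 libraries among them (adjusted p 0.0502 to 0.0958). Rasgrp2, described by gate below, had a log2 ratio of -1.33 ± 0.21 (adjusted p = 1.32e-06), with overlapping groups, and lost the call with the TFH libraries alone (log2 ratio -0.74, adjusted p = 0.0536). Plcg1, the phospholipase itself, had a log2 ratio of 0.80 ± 0.29 (adjusted p = 0.0566), and Sos1, Rasgrp1 and Prkcq had -0.88, -0.20 and -0.59.

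Nfatc1, the NFAT member that the receptor itself induces in activated T cells, had the largest positive ratio among the members called. It had 313 to 780 CPM (median 493) in TFH and TFH2 libraries, against 18.0, 63.4, 69.04 and 96.9 CPM in TH2 libraries. The lowest TFH2 library lay above the highest TH2 library, and the log2 ratio was 3.02 ± 0.50 (adjusted p = 0.00118). Bcl6KO libraries had 148 and 89.4 CPM, and Il4KO libraries 139 and 20.4 CPM. No other member of the calcium branch was called: Stim1 and Orai1, the calcium sensor and the channel it opens, had log2 ratios of -0.06 and 1.39, the calcium release channels Itpr1 and Itpr3 had 0.84 and -0.88, and Nfatc2, Nfatc3 and Rcan1 had 0.21, 0.33 and 1.15.

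Of the 10 negative regulators, 3 rose and none was called lower, where 2.95% and 7.29% of all genes were. Sla, also called SLAP, an adaptor that promotes loss of receptor chains, had 122 to 551 CPM (median 270.0) in TFH and TFH2 libraries, against 156, 126, 102 and 57.4 CPM in TH2 libraries, a log2 ratio of 1.40 ± 0.29 (adjusted p = 0.000225). Only the lowest TFH library, in the CXCR5int gate, fell within the TH2 range. Ptpn22, a phosphatase that acts on Lck and Zap70, had 107 to 242 CPM (median 149) in TFH and TFH2 libraries, against 29.8, 39.2, 89.9 and 127 CPM in TH2 libraries, a log2 ratio of 1.12 ± 0.35 (adjusted p = 0.0251). Dgkz, a kinase that removes diacylglycerol, had 86.6 to 271 CPM (median 160) in TFH and TFH2 libraries, against 122, 74.3, 43.8 and 91.5 CPM in TH2 libraries, a log2 ratio of 0.98 ± 0.33 (adjusted p = 0.0403). The Ptpn22 call was lost without TH2 replicate 1 or 2, TFH2 CXCR5int replicate 1 or TFH2 CXCR5hi replicate 2 (adjusted p 0.0503 to 0.146) and with the TFH libraries alone (adjusted p = 0.104), and the Dgkz call when any of 12 of the 18 libraries was left out, TH2 replicates 2, 3 and 4 among them (adjusted p 0.0508 to 0.198). Ptpn6, Ubash3a, Ubash3b, Cblb, Cbl, Sla2 and Dgka had log2 ratios of 0.05 to 1.67 and were not called.

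**Figure D1:**
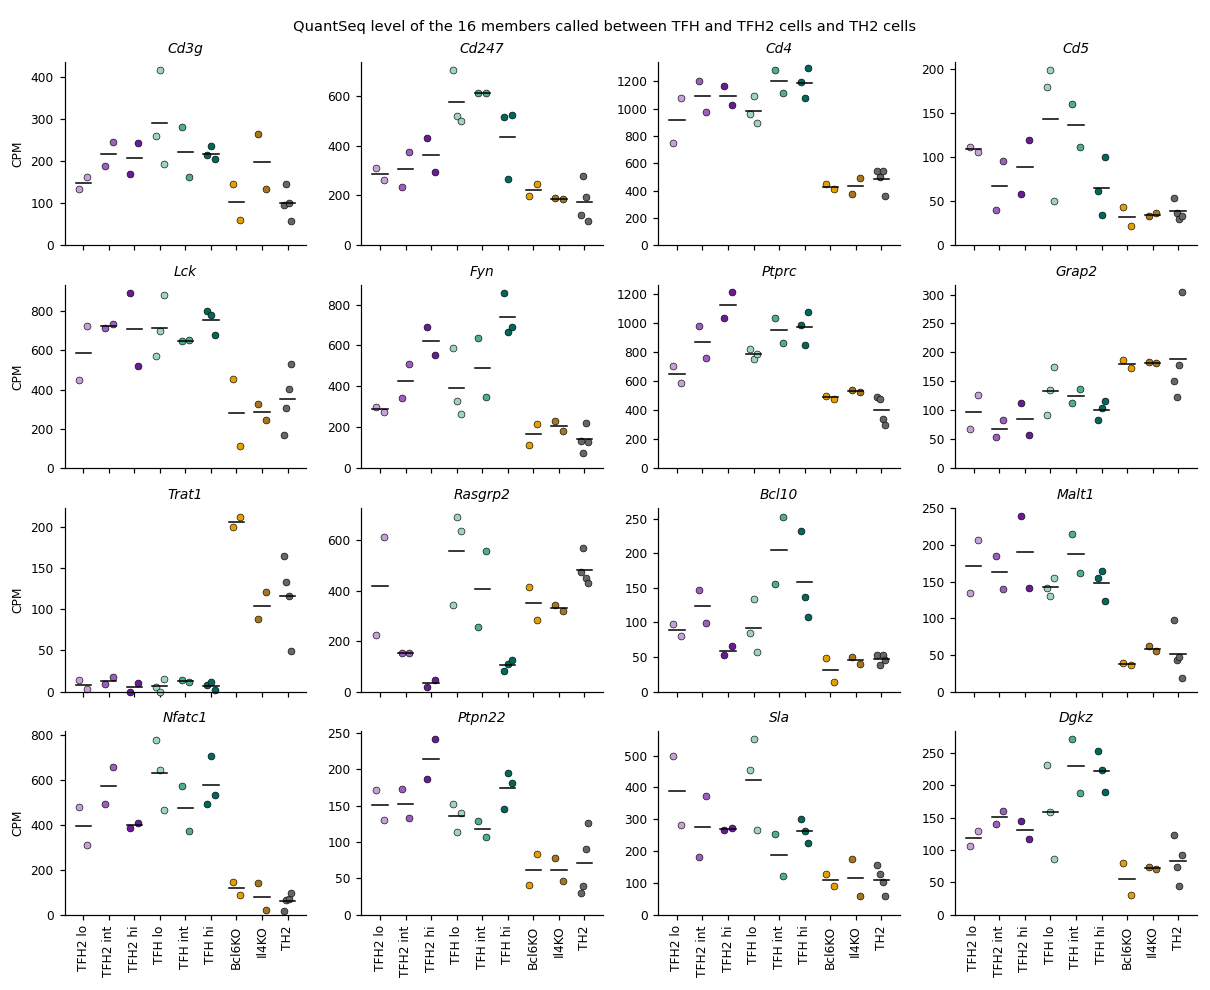
QuantSeq level in CPM (y axis) of the 16 members called between TFH and TFH2 cells and TH2 cells, 1 panel a gene, with 9 groups on the x axis; points are libraries and bars group means. Nfatc1 lies between 313 and 780 CPM in all TFH and TFH2 libraries and below 149 CPM in all others, and Trat1 at or below 17.5 CPM in TFH and TFH2 libraries and above 49 CPM in all others.

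The CXCR5hi gates, which hold the cells with most CXCR5, the chemokine receptor that leads to B cell follicles, were set against TH2 cells one genotype at a time. In TFH CXCR5hi cells 9 members rose and 2 fell, where 2.05% of all genes were called higher and 1.46% lower. The median log2 ratio was 0.72 over the members and 0 over all genes, and 38 of the 48 ratios were positive. In TFH2 CXCR5hi cells 8 members rose and 1 fell, where 1.7% and 1.24% of all genes were called higher and lower, and the median was 0.50 over the members. The same 4 TH2 libraries served both comparisons, so the pair is not independent. Fyn had 856, 668 and 688 CPM in TFH CXCR5hi libraries and 688 and 553 CPM in TFH2 CXCR5hi libraries, against 77.3 to 222 CPM in TH2 libraries, with log2 ratios of 2.38 ± 0.30 (adjusted p = 5.89e-10) and 2.13 ± 0.32 (adjusted p = 3.2e-07). Nfatc1 had 494, 707 and 532 CPM in TFH CXCR5hi libraries and 387 and 410.0 CPM in TFH2 CXCR5hi libraries, with log2 ratios of 3.23 ± 0.57 (adjusted p = 0.00334) and 2.69 ± 0.60 (adjusted p = 0.0219). The TFH2 value of Nfatc1 lost its call without TH2 replicate 2 or 3 (adjusted p 0.0518 and 0.0585).

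Cd4, Ptprc, Cd247, Malt1 and Sla were also called higher in both CXCR5hi comparisons. Cd4 had log2 ratios of 1.29 ± 0.22 in TFH and 1.17 ± 0.24 in TFH2 cells, Ptprc 1.27 ± 0.23 and 1.48 ± 0.25, Cd247 1.33 ± 0.29 and 1.06 ± 0.33, Malt1 1.51 ± 0.43 and 1.88 ± 0.47, and Sla 1.25 ± 0.35 and 1.28 ± 0.38. Bcl10 (1.74 ± 0.49, adjusted p = 0.0208) and Dgkz (1.42 ± 0.41, adjusted p = 0.0273) were called in TFH cells, and Ptpn22 (1.59 ± 0.47, adjusted p = 0.0392) in TFH2 cells. Trat1 had 8.35, 11.1 and 1.503 CPM in TFH CXCR5hi libraries, a log2 ratio of -4.06 ± 1.10 (adjusted p = 0.0307), and 0 and 9.96 CPM in TFH2 CXCR5hi libraries, where it was not called. Of these calls, leaving out 1 library ended none for Cd4, Fyn and Ptprc in either genotype, nor for Cd247, Nfatc1 and Rasgrp2 in TFH cells, nor for Rasgrp2 in TFH2 cells.

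The less stable calls of the CXCR5hi comparisons rest on few libraries. TFH libraries were of the Xist kind. Against TH2 libraries of that kind alone, Bcl10, Malt1, Sla and Dgkz lost their calls (adjusted p up to 0.389). TFH2 libraries were of the Ddx3y kind, and against TH2 libraries of that kind alone Ptpn22 lost its call (log2 ratio 1.01). Calls were also lost against the other kind. Fitted on the compared groups alone, Malt1 and Sla lost their calls in both genotypes, and Cd247 and Ptpn22 in TFH2 cells. The part of donor sex was not tested. Trat1 lost its call without any 1 of the 3 TFH CXCR5hi libraries (adjusted p 0.101 to 0.150). In the TFH comparison Malt1 and Dgkz lost theirs without TH2 replicate 2 or 3 or TFH CXCR5hi replicate 1 or 2, and Malt1 also without TH2 replicate 4 (adjusted p up to 0.147 for Malt1 and 0.137 for Dgkz). Bcl10 lost its call without TH2 replicate 2 or TFH CXCR5hi replicate 1 (adjusted p 0.0651 and 0.241), and Sla without TFH CXCR5hi replicate 1 or 2 or TH2 replicate 4 (up to 0.0956). In the TFH2 comparison Cd247, Ptpn22 and Sla each lost the call without either TFH2 CXCR5hi library (adjusted p up to 0.750, 0.442 and 0.213), Cd247 also without TH2 replicate 1 or 4, Ptpn22 without TH2 replicate 1 or 2, and Sla without TH2 replicate 3 or 4. Malt1 lost it there without TFH2 CXCR5hi replicate 1 or TH2 replicate 4 (adjusted p up to 0.422).

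**Figure D2:**
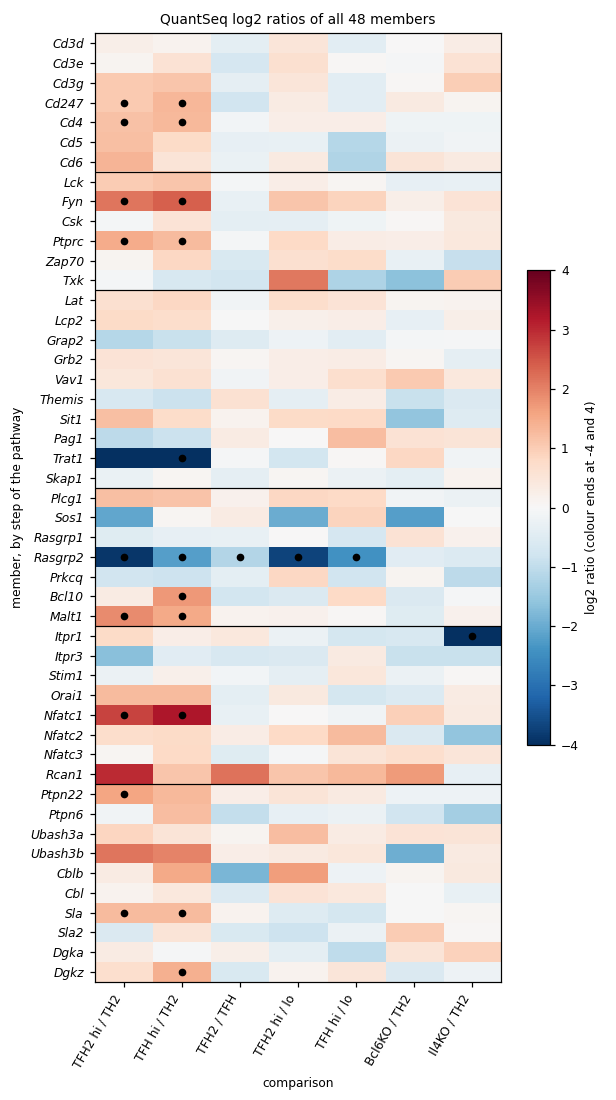
Log2 ratios of all 48 members (rows, by step of the pathway) in 7 QuantSeq comparisons (columns); the colour scale ends at -4 and 4, and a dot marks a call. Dots stand in 9 rows of the TFH2 CXCR5hi column and 11 of the TFH CXCR5hi column, and Rasgrp2 is dotted in 5 columns.

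Rasgrp2 and Fyn were the members called between the CXCR5hi and CXCR5lo gates, Rasgrp2 lower and Fyn higher. Rasgrp2 encodes a guanine nucleotide exchange factor, also called CalDAG-GEFI, that binds calcium and diacylglycerol and acts mainly on Rap1, a switch for integrin adhesion. In TFH2 cells it had 226 and 613 CPM in the CXCR5lo gate, 152 and 152 CPM in the CXCR5int gate and 18.7 and 45.9 CPM in the CXCR5hi gate. In TFH cells it had 343, 693 and 638 CPM in the CXCR5lo gate, 255 and 558 CPM in the CXCR5int gate and 80.0, 108 and 126 CPM in the CXCR5hi gate. All 5 CXCR5hi libraries lay below all 5 CXCR5lo libraries. TH2 libraries had 475, 569, 449 and 430 CPM, Bcl6KO libraries 417 and 282 CPM and Il4KO libraries 342 and 320 CPM.

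Between CXCR5hi and CXCR5lo gates over both genotypes, Rasgrp2 fell by 3.05 on the log2 scale (SE 0.29, adjusted p = 1.18e-14). It was the only member called lower, where 0.292% of all genes were. Within TFH cells it fell by 2.41 (SE 0.35, adjusted p = 1.39e-06), again the 1 member called lower against 0.111% of all genes, and no member was called higher against 0.0278%. Within TFH2 cells it fell by 3.69 (SE 0.45, adjusted p = 9.43e-09), the 1 member called lower against 0.104% of all genes, with no member higher against 0.0487%. DESeq2 also called 0 members higher in either genotype, where over all genes it called 30 higher in TFH and 51 in TFH2 cells. By edgeR 4 members had an unadjusted p under 0.05 in each. In a fit of the TFH2 CXCR5hi and CXCR5lo libraries alone (n = 2 each) the ratio was the same and its adjusted p was 0.152. The gate difference of TFH2 cells minus that of TFH cells was -1.28 ± 0.53 for Rasgrp2 (adjusted p = 0.908). No member was called in that interaction by edgeR's quasi-likelihood test, where 0.0139% of all genes were called higher and 0% lower. In it 3 members had an unadjusted p under 0.05. DESeq2 also called 0 members there, and over all genes 24 higher and 11 lower. Against TH2 cells, Rasgrp2 had a log2 ratio of -2.20 ± 0.33 in TFH CXCR5hi cells (adjusted p = 3.71e-07) and -3.89 ± 0.43 in TFH2 CXCR5hi cells (adjusted p = 1.06e-11).

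Ccr7, a chemokine receptor gene of naive and recirculating T cells, moved with Rasgrp2 in some groups. In TFH libraries it had 246 to 481 CPM in the CXCR5lo gate, 62.3 to 106 CPM in the CXCR5int gate and 4.18 to 16.5 CPM in the CXCR5hi gate, and TH2 libraries had 159 to 254 CPM. In TFH2 libraries it had 0 to 75.2, 33.6 to 60.5 and 0 to 29.2 CPM in the same order of gates. The part of naive or recirculating cells in the Rasgrp2 difference was not tested in either genotype. The summed myeloid markers of TFH2 libraries were 219 to 327 CPM in the CXCR5lo gate, 463 to 786 CPM in the CXCR5int gate and 645 to 1318 CPM in the CXCR5hi gate. In TFH libraries they were 74.9 to 156, 123 to 131 and 87.7 to 150 CPM in these gates. The part of myeloid cells in the Rasgrp2 difference was not tested.

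For Fyn, the 1 member called higher, the share of all genes called higher was 0.111%. It had 301 and 274 CPM in TFH2 CXCR5lo, 342 and 511 CPM in TFH2 CXCR5int and 688 and 553 CPM in TFH2 CXCR5hi libraries. In TFH cells it had 588, 327 and 267 CPM in the CXCR5lo, 636 and 347 CPM in the CXCR5int and 856, 668 and 688 CPM in the CXCR5hi gate. One TFH CXCR5lo library, at 588 CPM, lay above the lower TFH2 CXCR5hi library. The log2 ratio was 1.01 ± 0.25 (adjusted p = 0.0293). It was 0.90 ± 0.32 within TFH cells and 1.11 ± 0.39 within TFH2 cells, where neither was called (adjusted p = 0.641 and 0.668). Its call over both genotypes was lost without TFH2 CXCR5hi replicate 1, TFH2 CXCR5lo replicate 2, TFH CXCR5hi replicate 1, or TFH CXCR5lo replicate 2 or 3 (adjusted p 0.0727 to 0.148). Nfatc1, far higher in TFH and TFH2 than in TH2 cells, had a gate ratio of -0.06 ± 0.46.

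**Figure D3:**
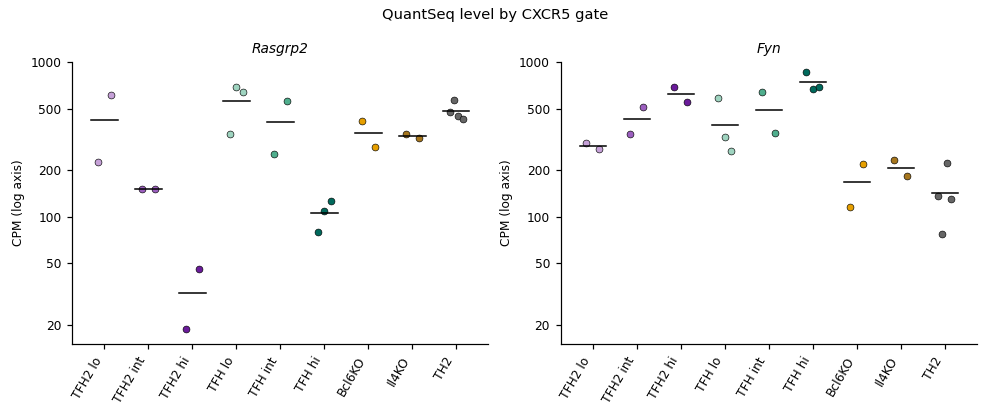
QuantSeq level in CPM on a log axis of Rasgrp2 (left) and Fyn (right) in 9 groups; points are libraries and bars group means. Rasgrp2 lies at 18.7 to 126 CPM in the CXCR5hi gates and at 226 to 693 CPM in the CXCR5lo gates, and Fyn is highest, at 553 to 856 CPM, in the CXCR5hi gates.

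The promoters of Rasgrp2 and Fyn, the pair of members called between gates, and of Trat1, the member with the lowest ratio against TH2, are shown because NFAT is a product of the same pathway. Each is the 250 bases before a RefSeq transcript start (GRCm38.p6), written 5′ to 3′ on the gene's strand, with matches to GGAAA, the core of NFAT sites, or to its reverse complement TTTCC, in capitals. Rasgrp2 has 2 annotated starts, at chr19:6399625-6399874 and chr19:6401455-6401704 on the plus strand. The Fyn promoter is chr10:39369549-39369798 on the plus strand, and the Trat1 promoter is chr16:48772063-48772312 on the minus strand.
Rasgrp2 promoter 1: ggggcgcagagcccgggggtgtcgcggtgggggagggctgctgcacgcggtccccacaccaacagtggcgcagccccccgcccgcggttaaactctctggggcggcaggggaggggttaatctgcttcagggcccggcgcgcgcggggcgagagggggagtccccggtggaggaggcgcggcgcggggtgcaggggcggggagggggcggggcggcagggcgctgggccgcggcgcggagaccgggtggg
Rasgrp2 promoter 2: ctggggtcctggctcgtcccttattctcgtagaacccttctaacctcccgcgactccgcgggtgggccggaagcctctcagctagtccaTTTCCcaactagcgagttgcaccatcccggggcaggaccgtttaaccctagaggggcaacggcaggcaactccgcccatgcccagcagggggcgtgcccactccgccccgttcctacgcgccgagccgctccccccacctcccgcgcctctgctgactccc
Fyn promoter: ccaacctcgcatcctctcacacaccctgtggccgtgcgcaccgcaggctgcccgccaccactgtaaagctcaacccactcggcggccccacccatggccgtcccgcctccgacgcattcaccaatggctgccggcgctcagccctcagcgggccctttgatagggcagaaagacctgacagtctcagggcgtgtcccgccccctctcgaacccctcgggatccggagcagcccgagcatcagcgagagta
Trat1 promoter: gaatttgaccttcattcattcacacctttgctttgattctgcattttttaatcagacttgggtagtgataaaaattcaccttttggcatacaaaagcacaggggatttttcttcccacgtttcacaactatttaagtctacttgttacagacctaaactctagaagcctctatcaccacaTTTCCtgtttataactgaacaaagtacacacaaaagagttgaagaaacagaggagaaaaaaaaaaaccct
The first Rasgrp2 promoter and the Fyn promoter held 0 matches, and the second Rasgrp2 promoter and the Trat1 promoter 1 each. Their base composition differed, with 79.6% G and C in the first Rasgrp2 promoter, 67.2% in the second and in Fyn, and 35.2% in Trat1. RefSeq promoters were found for 40 of the 48 members, 58 promoters in all. GGAAA or its complement was present in 38 of these 58 (65.5%) and in 55.6% of 32851 promoters of all genes. The KLF box letters CACCC or GGGTG were present in 60.3% of member promoters and 52.0% of all, the RUNX letters TGTGGT or ACCACA in 12.1% and 14.0%, the E-box CAGCTG, which reads the same on both strands, in 8.62% and 13.0%, and the ETS letters CCGGAAG or CTTCCGG in 1.72% and 6.91%. None of these letter sets contains another, although GGAAG of the ETS set and GGAAA differ in the last base alone. A match describes letters in this window and not a bound site.

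TFH2 cells, which carry the IL-4BacTg transgene beside OTII, were set against TFH cells over the 3 gates (n = 6 and 8 libraries). Only Rasgrp2 differed, lower in TFH2 cells with a log2 ratio of -1.18 ± 0.23 (adjusted p = 0.000784), where 0.32% of all genes were called lower; no member was called higher, against 0.327%. Its level overlapped between the genotypes in the CXCR5lo gate and not in the CXCR5int or CXCR5hi gates. The member median was -0.28 and that of all genes -0.05, and 10 members had an unadjusted p under 0.05. All 10 had lower means in TFH2 cells. Among them were Cd247, at 236 to 430.0 CPM in TFH2 libraries against 266 to 707 CPM in TFH libraries (log2 ratio -0.76 ± 0.21, adjusted p = 0.0644), and the ubiquitin ligase gene Cblb, at 0 to 48.02 CPM in TFH2 libraries against 49.8 to 120 CPM in TFH libraries (log2 ratio -1.84 ± 0.67, adjusted p = 0.297). The higher myeloid, B cell and erythroid sums of TFH2 libraries and their donor sex move with genotype here and cannot be told apart from it.

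Bcl6 is the transcription factor that TFH cells need, and Bcl6KO cells, whose label names no IL-4BacTg transgene, had no member called against TH2 cells (n = 2 and 4). By edgeR's quasi-likelihood test 0.0139% of all genes were called higher and 0.00695% lower, and 0 members had an unadjusted p under 0.05. DESeq2 also called 0 members, and over all genes 16 higher and 110 lower. The member median was -0.06, and the log2 ratios ran from -2.21 ± 1.96 for Sos1 to 1.69 ± 2.62 for Rcan1. For Nfatc1 the ratio was 0.94 ± 0.60 and for Fyn 0.24 ± 0.33. Bcl6 itself had 6.77 and 25.6 CPM in Bcl6KO libraries, against 0.392 to 13.3 CPM in TH2 libraries, so the 3' reads do not show the deletion and do not check the label.

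In Il4KO cells, sorted as CD4+ without the hCD2 gate of TH2 cells, Itpr1 was the 1 member called lower against TH2 cells (n = 2 and 4), where 0.0626% of all genes were; no member was called higher, against 0.00695%. Itpr1 encodes a receptor that releases calcium from the endoplasmic reticulum. It had 0 and 1 count in Il4KO libraries (0 and 0.345 CPM), against 63.9, 46.7, 48.5 and 29.2 CPM and 496 counts in all in TH2 libraries. From these counts the ratio of Il4KO to TH2 cells was 0.0032, with an exact 95% interval of 8.09e-05 to 0.0179 that covers counting error only. The adjusted p was 8.58e-06, and 0.679 in a fit of these 6 libraries alone. Every other QuantSeq library had at least 18.4 CPM of Itpr1. Il4 itself had 0 and 3 counts in Il4KO libraries, but TH2 libraries also had only 0 to 13.7 CPM, so it is a weak check of the label.

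RNA-seq set TFH CXCR5hi and TH2 cells against each other and against naive cells (n = 2 each). The 2 libraries of each group had log2 correlations of 0.990 to 0.992 across genes, and most genes pass the test. They still differed by more than counting error. Chi-square per degree of freedom between them was 21.4 in TH2, 5.31 in naive and 2.65 in TFH cells. Against TH2 cells, 30 members rose and 10 fell in TFH cells, where 30.8% of all genes were called higher and 31% lower. The members' shares were 62.5% higher and 20.8% lower, and their median log2 ratio was 0.54 against -0.01 over all genes. Against naive cells, 28 members rose and 15 fell in TFH cells (58.3% and 31.2%), where 29.6% and 27.6% of all genes did, so the share that fell was near the background. In TH2 cells against naive cells 14 rose and 24 fell (29.2% and 50%), where 33.9% and 31.9% of all genes did, and the median was -0.29 over the members and 0 over all genes. The 3 comparisons share groups and are not independent. TFH libraries had Ddx3y above Xist and TH2 and naive libraries Xist above Ddx3y, so donor sex, genotype and cell type cannot be told apart between TFH cells and the others. The 4 NK cell markers summed to 46.5 to 51.9 CPM in TFH libraries, 0 to 0.0466 CPM in TH2 libraries and 0.113 to 0.161 CPM in naive libraries, with Klre1 and Klra8 at 0 in TFH libraries. The B cell markers summed to 279.6 to 288 CPM in TFH, 176 to 188 CPM in TH2 and 377 to 393 CPM in naive libraries, the myeloid markers to 21.7 to 23.4, 21.4 to 23.6 and 29.8 to 31.1 CPM, and the erythroid markers to 21.2, 41.8 to 45.8 and 8.43 to 12.1 CPM in the same order. Ms4a1 was at 0 in TH2 libraries. The CD4 T cell markers summed to 11350 to 11680 CPM in TFH, 14550 to 20270 CPM in TH2 and 3462 to 3483 CPM in naive libraries. The part of other cells in the RNA-seq results was not tested.

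**Figure D4:**
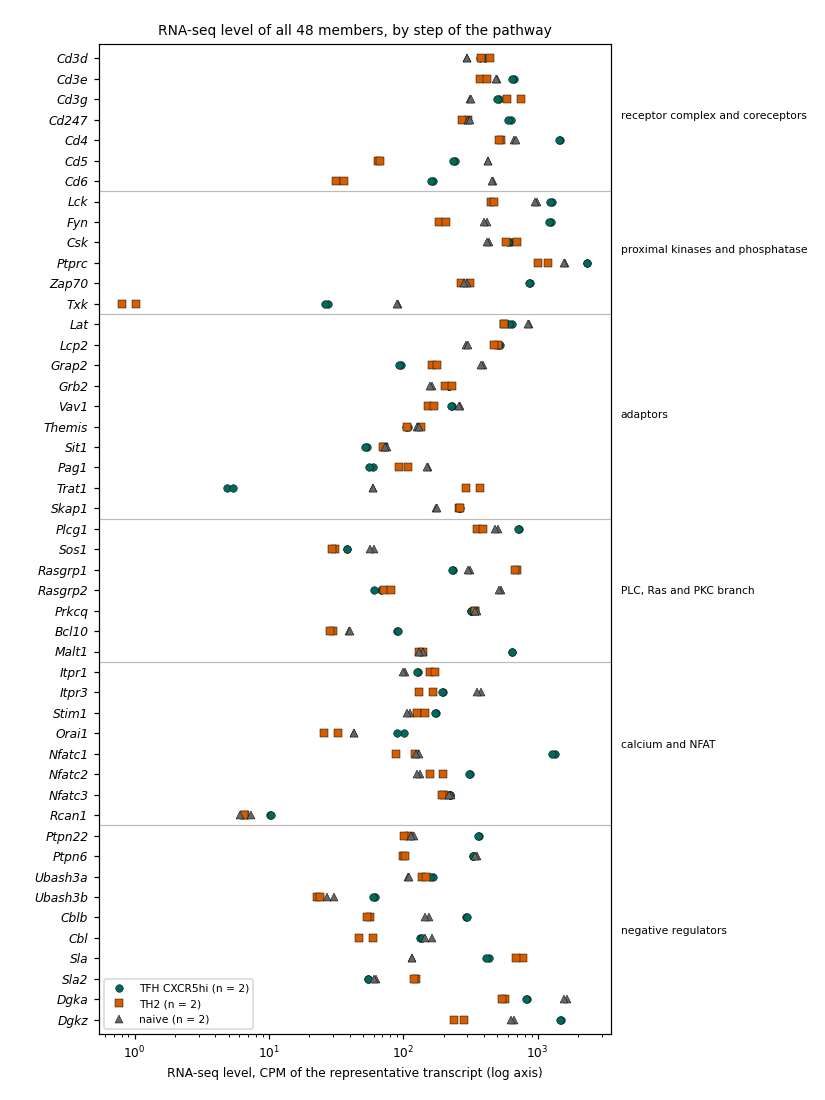
RNA-seq level in CPM of each gene's most counted transcript, on a log axis, for all 48 members by step of the pathway; circles are TFH CXCR5hi, squares TH2 and triangles naive libraries (n = 2 each). Trat1 and Txk are the members whose groups lie farthest apart, with Trat1 near 5 CPM in TFH cells and Txk near 1 CPM in TH2 cells.

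At the receptor, 5 of 7 members rose in TFH against TH2 cells and 1, Cd3g, fell, where 30.8% and 31% of all genes did. Cd4 had 1462 and 1441 CPM in TFH libraries, against 530.1 and 512 CPM in TH2 libraries and 669 and 687 CPM in naive libraries. Cd5 had 243 and 236 CPM in TFH libraries, against 64.8 and 67.4 CPM in TH2 libraries and 423 and 430 CPM in naive libraries. Its TH2 level was the lowest, with log2 ratios of 1.86 ± 0.07 for TFH over TH2 cells and -2.69 ± 0.08 for TH2 over naive cells. Cd6, a relative of Cd5 that also modulates receptor signals, had 166 and 160 CPM in TFH libraries, against 31.8 and 36.3 CPM in TH2 libraries and 462 and 459 CPM in naive libraries. For Cd6 the log2 ratios were 2.26 ± 0.09 for TFH over TH2 cells (adjusted p = 1.1e-09) and -3.76 ± 0.09 for TH2 over naive cells (adjusted p = 3.14e-11). Cd247 and Cd3e had TFH over TH2 log2 ratios of 1.09 and 0.73, Cd3g had -0.41 and Cd3d, not called, -0.09. Without TFH CXCR5hi replicate 2, Cd3g was not called (adjusted p = 0.0745).

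All 5 proximal members called between TFH and TH2 cells were higher in TFH cells, where 30.8% of all genes were called higher and 31% lower. Txk, whose protein can phosphorylate phospholipase C gamma, had 27.4 and 26.3 CPM in TFH libraries, against 1.03 and 0.809 CPM in TH2 libraries and 91.7 and 90.03 CPM in naive libraries. It was the member lowest in TH2 relative to naive cells (log2 ratio -6.63 ± 0.12, adjusted p = 8.18e-12) and the highest ratio of TFH over TH2 cells (4.88 ± 0.13, adjusted p = 7.81e-11). Fyn had 1253 and 1222 CPM in TFH libraries, against 183 and 207 CPM in TH2 libraries and 422 and 401 CPM in naive libraries, a TFH over TH2 log2 ratio of 2.66 ± 0.09 (adjusted p = 4.45e-10). Zap70, the kinase that docks on the phosphorylated chains, had 881 and 858 CPM in TFH libraries, against 267 and 316 CPM in TH2 libraries and 298 and 284 CPM in naive libraries. Lck and Ptprc had TFH over TH2 log2 ratios of 1.46 ± 0.08 and 1.09 ± 0.10, and Csk, not called, -0.05. Against naive cells, TFH cells had 5 proximal members higher and 1 lower, Txk, where 29.6% and 27.6% of all genes were. TH2 cells had 1 higher, Csk, and 4 lower, where 33.9% and 31.9% of all genes were.

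Among the adaptors, 1 rose and 4 fell in TFH against TH2 cells, and 3 rose and 7 fell against naive cells. Of all genes 30.8% were called higher and 31% lower against TH2 cells, and 29.6% and 27.6% against naive cells. The share of adaptors that fell against TH2 cells was thus near the background. Trat1 had 4.86 and 5.35 CPM in TFH libraries, against 371 and 295 CPM in TH2 libraries and 59.6 and 59.6 CPM in naive libraries. It thus lay below naive cells in TFH cells (log2 ratio -3.55 ± 0.14, adjusted p = 2.82e-09) and above them in TH2 cells (2.48 ± 0.10, adjusted p = 3.63e-09), and the TFH over TH2 ratio was -6.03 ± 0.14 (adjusted p = 3.23e-11). Grap2 had 96.2 and 92.7 CPM in TFH libraries, against 162 and 178 CPM in TH2 libraries and 394 and 382 CPM in naive libraries, a TFH over naive log2 ratio of -2.04 ± 0.08 (adjusted p = 2.13e-09). Pag1, the membrane adaptor that anchors Csk, and Sit1 were also lower in TFH than in TH2 cells (log2 ratios -0.82 and -0.42), while Vav1, an exchange factor for Rac, was higher (0.51). Lat, the central scaffold, had 644 and 614 CPM in TFH libraries, against 557 and 558 CPM in TH2 libraries and 859 and 842 CPM in naive libraries, and Lcp2, the SLP-76 gene, 522 and 509 CPM, against 504 and 477 CPM in TH2 and 292 and 303 CPM in naive libraries. Lat, Lcp2, Grb2, Themis and Skap1 were not called between TFH and TH2 cells. The TFH over naive calls of Vav1 (-0.19) and Themis (-0.26) were lost without any 1 of the 4 libraries (adjusted p 0.108 to 0.211).

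In the phospholipase C, Ras and protein kinase C branch, Malt1, Bcl10, Plcg1 and Sos1 rose and Rasgrp1 and Rasgrp2 fell in TFH against TH2 cells. Of all genes 30.8% were called higher and 31% lower there, so the share of the branch that fell was near the background. Malt1 had 648 and 642 CPM in TFH libraries, against 140 and 132 CPM in TH2 libraries and 141 and 131 CPM in naive libraries, a TFH over naive log2 ratio of 2.24 ± 0.08 (adjusted p = 1.06e-09) and a TH2 over naive ratio of 0.00 ± 0.08. Bcl10 had 90.3 and 90.9 CPM in TFH libraries, against 29.8 and 28.6 CPM in TH2 libraries and 39.2 and 40.2 CPM in naive libraries. Rasgrp1, the Ras exchange factor that diacylglycerol recruits in T cells, had 232 and 230 CPM in TFH libraries, against 702 and 676 CPM in TH2 libraries and 315 and 304 CPM in naive libraries, a TFH over TH2 log2 ratio of -1.58 ± 0.08 (adjusted p = 8.4e-09). Rasgrp2 had 68.3 and 60.6 CPM in TFH libraries, against 71.6 and 80.7 CPM in TH2 libraries and 529 and 517 CPM in naive libraries. Both effector groups thus lay below naive cells, with log2 ratios of -3.02 ± 0.09 for TFH cells and -2.78 ± 0.09 for TH2 cells, and the TFH over TH2 ratio was -0.24 ± 0.09 (adjusted p = 0.0358). That last call was lost without TH2 replicate 2 or TFH CXCR5hi replicate 2 (adjusted p 0.0648 and 0.271) and with transcripts summed per gene (adjusted p = 0.253). Ccr7 had 70.5 to 74.8 CPM in TFH, 38.6 to 38.8 CPM in TH2 and 369 CPM in both naive libraries. Prkcq was not called in any of the 3 comparisons.

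Of the 8 calcium and NFAT members, 7 rose in TFH against TH2 cells and 1, Itpr1, fell, where 30.8% and 31% of all genes did. Nfatc1 had 1339 and 1283 CPM in TFH libraries, against 88.4 and 123 CPM in TH2 libraries and 131 and 125 CPM in naive libraries. Its log2 ratios were 3.63 ± 0.14 for TFH over TH2 cells (adjusted p = 1.32e-08) and 3.36 ± 0.14 for TFH over naive cells (adjusted p = 3.12e-08), and TH2 and naive cells were not called different. Nfatc2, the NFAT protein already present in resting cells, had 313 and 306 CPM in TFH libraries, against 157 and 197 CPM in TH2 libraries and 133 and 126 CPM in naive libraries. Orai1 had 100.5 and 90.2 CPM in TFH libraries, against 25.8 and 32.5 CPM in TH2 libraries and 43.3 and 43.2 CPM in naive libraries, a TFH over TH2 log2 ratio of 1.71 ± 0.10 (adjusted p = 8.22e-08). Rcan1, Itpr3, Stim1 and Nfatc3 had TFH over TH2 log2 ratios of 0.65, 0.40, 0.36 and 0.18, and Itpr1 had -0.38. Itpr3 was not called without TFH CXCR5hi replicate 1 (adjusted p = 0.0662), nor Nfatc3 without either TFH library (adjusted p 0.172 and 0.288).

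Of the 10 negative regulators, 8 rose in TFH against TH2 cells, and Sla and Sla2 fell, where 30.8% and 31% of all genes did. Dgkz had 1503 and 1457 CPM in TFH libraries, against 239 and 285 CPM in TH2 libraries and 670.4 and 638 CPM in naive libraries, a TFH over TH2 log2 ratio of 2.50 ± 0.10 (adjusted p = 1.77e-09). Cblb, a ubiquitin ligase that raises the threshold for activation, had 295 and 296 CPM in TFH libraries, against 56.0 and 54.0 CPM in TH2 libraries and 156 and 146 CPM in naive libraries, a ratio of 2.43 ± 0.08 (adjusted p = 2.18e-10). Both were lower in TH2 than in naive cells, by log2 ratios of -1.32 ± 0.10 and -1.46 ± 0.07. Ptpn22 had 368 and 357 CPM in TFH libraries, against 109.9 and 101 CPM in TH2 libraries and 119 and 115 CPM in naive libraries. Ptpn6, the SHP-1 phosphatase, had 333 and 331 CPM in TFH libraries, against 99.4 and 103 CPM in TH2 libraries and 355 and 344 CPM in naive libraries, so the TH2 level was the low one. Sla had 431 and 415 CPM in TFH libraries, against 782 and 691 CPM in TH2 libraries and 116 and 117 CPM in naive libraries. It was higher than in naive cells in both, with log2 ratios of 1.86 ± 0.09 in TFH cells (adjusted p = 9.89e-09) and 2.66 ± 0.09 in TH2 cells (adjusted p = 3.72e-10). Ubash3a, Ubash3b, Cbl and Dgka had TFH over TH2 log2 ratios of 0.18, 1.37, 1.34 and 0.57, and Sla2 had -1.17. The Ubash3a call was lost without either TFH library (adjusted p 0.115 and 0.389).

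Annotation bears on some of these values. The RNA-seq transcripts that stand for Ptprc, Trat1 and Ptpn22 are annotated as a retained intron (Ptprc) or as targets of nonsense-mediated decay. For Ptprc and Trat1 this was the only named transcript in the files. Their RNA-seq values thus do not cover other transcripts of these genes, and do not show which transcript dominates. For Ptpn22 it had the highest count of 4 transcripts. Of the members, 9 overlap protein-coding genes on the other strand: Sla (Tg), Dgka (Pmel), Dgkz (Gm9821), Cd247 (Pou2f1), Plcg1 (Zhx3), Sla2 (Rab5if), Lcp2 (4930469K13Rik), Sos1 (Arhgef33) and Nfatc3 (Esrp2). Reads of such a pair cannot be told apart without strand, and the sources used here do not state whether counting used strand. Some calls of TH2 over naive cells rested on 1 naive library: Cd3e and Ubash3b were lost without naive replicate 1 (adjusted p = 0.0585 and 0.108) and Stim1 without naive replicate 2 (0.0720), as was Cd3d of TFH over naive cells without TFH CXCR5hi replicate 1 (0.0890).

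TFH CXCR5hi and TH2 cells were compared in both kits with no library in common. The TH2 cells differ in genotype, IL-4BacTg in RNA-seq and OTII Tg IL-4BacTg x OTII Tg in QuantSeq, and the TFH donors differ in sex by Xist and Ddx3y. Of the 9 members called higher in QuantSeq, 8 were called higher in RNA-seq (88.9%), and the 2 called lower were lower in both. Over the 11921 genes in both fits, 241 of 289 genes called higher in QuantSeq were higher in RNA-seq (83.4%) and 140 of 187 called lower were lower (74.9%), so the members' shares rest on few genes and lie near those of all genes. Nfatc1 (log2 ratios 3.23 in QuantSeq and 3.63 in RNA-seq), Fyn (2.38 and 2.66) and Trat1 (-4.06 and -6.03) had large ratios of the same sign in both. Among the members called in both kits, only Sla differed in sign, higher in TFH CXCR5hi than in TH2 cells in QuantSeq (1.25 ± 0.35) and lower in RNA-seq (-0.80 ± 0.08). For Rasgrp2 the ratios were -2.20 and -0.24. Its TFH level was 80.0 to 126 CPM in QuantSeq and 60.6 to 68.3 CPM in RNA-seq. Its TH2 level was 430 to 569 CPM in QuantSeq and 71.6 to 80.7 CPM in RNA-seq. Levels are not on the same scale in the kits, since RNA-seq used only the most counted of 24 Rasgrp2 transcripts. Txk, at 4.88 in RNA-seq, had a QuantSeq ratio of -0.65, with 0, 19.8 and 50.9 CPM in TFH CXCR5hi libraries against 20.4 to 60.5 CPM in TH2 libraries.

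**Figure D5:**
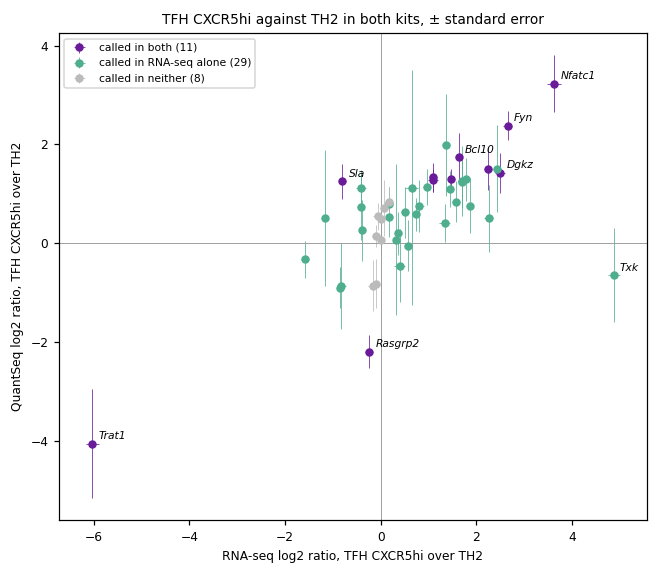
Log2 ratios of TFH CXCR5hi over TH2 cells for the 48 members in RNA-seq (x axis) and QuantSeq (y axis), with bars of 1 standard error; colours mark members called in both kits (11), in RNA-seq alone (29) or in neither (8). Nfatc1 and Fyn lie at the upper right, Trat1 at the lower left, and Sla is the only member called in both kits whose sign differs; others called in RNA-seq alone, such as Txk and Cd3g, also differ in sign.

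The 2 single RNA-seq libraries went against their labels in the TFH genes Cxcr5 and Il21. The library labelled TFH2 CXCR5hi had 1.09 CPM of Cxcr5 and 5.06 CPM of Il21, and the library labelled TH2 from IL-4BacTg x OTII Tg mice had 128 and 102 CPM of them. Some members followed the same pattern and others did not. Nfatc1 had 55.8 CPM in the library labelled TFH2 CXCR5hi and 338 CPM in the library labelled TH2, and Trat1 had 108 and 16.4 CPM in them. In the library labelled TH2, however, Zap70 (351.8 CPM) and Orai1 (37.1 CPM) lay nearer the TH2 means (291.5 and 29.1 CPM). The TFH means of these genes were 869.5 and 95.3 CPM. Over the 48 members, the library labelled TFH2 CXCR5hi differed from the TH2 mean by 0.51 on the log2(CPM + 1) scale on average, from the naive mean by 0.87 and from the TFH mean by 1.13. The library labelled TH2 differed from the TFH mean by 0.71, from the TH2 mean by 0.81 and from the naive mean by 0.86. In that library 33, 32 and 33 of the 48 members lay within 1 log2 unit of these means, in the same order. It also held 1254 CPM of B cell and 232 CPM of myeloid markers. With 1 library each, neither label was tested, and without both libraries in the fit the RNA-seq calls were 30 higher and 10 lower for TFH over TH2 cells, 28 and 16 for TFH over naive cells, and 14 and 25 for TH2 over naive cells. Over all genes that fit called 5174 higher and 5182 lower, 4967 and 4671, and 5650 and 5387, in the same order.

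A further 73 genes of the pathway were counted beside the 48. Against TH2 cells in QuantSeq, TFH and TFH2 cells over all gates had 9 of 72 tested higher and 4 lower, where 2.95% and 7.29% of all genes were. TFH CXCR5hi cells had 6 higher and 3 lower (2.05% and 1.46% of all genes), and TFH2 CXCR5hi cells 4 and 3 (1.7% and 1.24%). Between TFH2 and TFH cells only Grap, a GRB2-related adaptor, was called (log2 ratio 1.02), and none of the 72 was called between gates, in the interaction or in the knockouts. In RNA-seq, TFH cells had 32 of 73 higher and 23 lower than TH2 cells, where 30.8% and 31% of all genes were, so the share that fell was near the background. Relative to naive cells, TFH cells had 31 higher and 25 lower (29.6% and 27.6% of all genes), and TH2 cells 30 and 29 (33.9% and 31.9%). Ppp3ca, the calcineurin A alpha subunit that activates NFAT, was among those that fell: it averaged 27.2 ± 31.7 CPM in TFH and TFH2 libraries and 168 ± 31.1 CPM in TH2 libraries by QuantSeq (SD, n = 14 and 4; log2 ratio -3.01 ± 0.44, adjusted p = 1.32e-06). By RNA-seq it averaged 3.00 CPM in TFH, 75.5 CPM in TH2 and 50.1 CPM in naive libraries, while Nfatc1 was high in TFH cells in both kits. Ptpn11, the SHP-2 phosphatase, averaged 210 ± 101 CPM in TFH and TFH2 libraries and 55.7 ± 30.0 CPM in TH2 libraries by QuantSeq, and 651 CPM in TFH and 82.4 CPM in TH2 libraries by RNA-seq. Dok2, an adaptor that recruits Ras inhibitors, averaged 114 ± 33.0 CPM in TFH and TFH2 libraries and 288 ± 98.7 CPM in TH2 libraries by QuantSeq, and 58.3 CPM in TFH and 443 CPM in TH2 libraries by RNA-seq. These 3 genes were named for their size in both kits after their values were seen.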

How the data were processed

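Per the labels, 22 libraries were made with the Lexogen QuantSeq kit and 8 with NEB Next Ultra. The authors deposited counts: whole numbers of reads a gene for QuantSeq and a transcript for RNA-seq. Programs named in the submitters' processing notes are featureCounts 1.6.0, STAR 2.7.0c and Bowtie 0.12.2, without saying which made which file. Gene names came from GENCODE M21. Identifiers without a name held 0.0062% of QuantSeq and 14.66% of RNA-seq counts and were left out. For RNA-seq the transcript of a gene that had the most counts stood for the gene. Counts of its other transcripts were left out too.

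The kits were never put in 1 fit. The test was edgeR's (version 4.0.16, R 4.3.3), run 2-sided on its robust quasi-likelihood fit after TMM scaling and the filterByExpr filter at a minimum count of 10 and total of 15. Groups were the only term, since the labels give no covariate. For QuantSeq 14380 genes were fitted (13 residual degrees of freedom) and for RNA-seq 17013 (3). P-values were adjusted over all genes, and calls are those under 0.05. CPM values use TMM-scaled library sizes, summed over the genes kept by the filter. The fit was tested on simulated counts. For QuantSeq these had a far smaller spread between libraries than the data (biological coefficient of variation 1.26). The simulation thus does not show how well changes are recovered in QuantSeq. Intervals cover counting error only.

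The members and lists were chosen with earlier results of these data known, so their counts are descriptions. Values are given for members called in QuantSeq in every library or as range and median, and in RNA-seq for the 6 largest ratios a comparison among those called, with further members by step. Alternatives were DESeq2 1.42.0, upper-quartile scaling, no filter, fits of the compared groups alone, each library left out, TH2 libraries of 1 donor sex, and summed transcripts. Fits without the 2 single RNA-seq libraries and TFH libraries alone against TH2 were added after seeing the data.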

Additional observations from a re-analysis of the deposited data

Results flagged for a closer look

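In QuantSeq TH2 cells (n = 4), replicate 3 stood apart from the other libraries in 2 members by Dixon's criterion. Cd6 had 63.92 CPM there, against 20.39 to 24.91 CPM in the other TH2 libraries, and the gap was 0.896 of the group's range. Rcan1 had 10.25 CPM there, against 0 to 0.6815 CPM in the others, a gap of 0.934 of the range. Chance alone flags about 1 in 20 groups of this kind.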

How the results depend on the processing

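No call of a member reversed under any alternative. Of 42 QuantSeq calls, 20 held in every setting, and of 121 RNA-seq calls, 110 did. No paired analysis was possible because the labels give no replicate numbers. Leaving out 1 library at a time, members called higher numbered 5 to 10 and lower 1 to 2 for TFH CXCR5hi over TH2 cells, 4 to 7 and 1 to 2 for TFH2 CXCR5hi over TH2, and 8 to 13 and 2 to 3 for all gates over TH2. They numbered 1 to 4 lower for TFH2 over TFH, 0 to 2 higher for CXCR5hi over CXCR5lo, 0 to 1 higher for TFH2 CXCR5hi over CXCR5lo and for the interaction, and 0 to 1 lower for Bcl6KO over TH2. Calls over all genes moved in these omissions too, so the ranges are not particular to the members. For TFH CXCR5hi over TH2 they ran from 213 to 285 higher and from 124 to 198 lower. For TFH2 CXCR5hi over TH2, 5 members were higher with upper-quartile scaling (228 over all genes) and 4 with the compared groups alone (168 over all genes). In that comparison 2 were lower with DESeq2 (439 over all genes) and without the filter (199). Also 2 were lower with TH2 libraries of the Xist kind (155 over all genes) and of the Ddx3y kind (171). For all gates over TH2, 8 were higher with TH2 libraries of the Ddx3y kind (373 over all genes). With the TFH libraries alone 1 was lower (395 over all genes). DESeq2 gave 2 lower for TFH2 over TFH (141 over all genes) and 2 higher for CXCR5hi over CXCR5lo (95 over all genes). With the compared groups alone 3 were lower for TFH2 over TFH (74 over all genes). Fitted on the compared groups alone, 0 were lower for TFH2 CXCR5hi over CXCR5lo and for Il4KO over TH2, and 0 over all genes. With TH2 libraries of the Xist kind, 1 was higher in each knockout, where over all genes 17 were in Bcl6KO and 24 in Il4KO. The cause of these shifts was not tested. QuantSeq depth (1.83 to 4.44 M counts) and the spread of its libraries limit what could be called there; the RNA-seq counts (2 libraries a group) moved by less than 1.5 times in every setting.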
